A study of Mus musculus with 9 samples.

Results

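The methylation of lysine 9 of histone H3 (H3K9) and the HP1 proteins that read it were examined through 10 genes in mouse 8-cell embryos. The genes were *Setdb1*, *Trim28*, *Ehmt1*, *Ehmt2*, *Suv39h1*, *Suv39h2*, *Cbx1*, *Cbx3*, *Cbx5* and *Atf7ip*, chosen by symbol from the 55335 entries of each expression file. All 10 were listed, and all 10 passed the filter of a mean of at least 1 FPKM (fragments scaled by transcript length and by the mapped fragments of the library) that left 13011 genes for testing. RNA was collected from IVF embryos of ICR mice cultured in KSOM medium. The study had 9 libraries in 3 groups of 3: control embryos, injected as zygotes with a nontargeting siRNA, MFN1-KD embryos, injected with siRNA against *Mfn1*, and H3.3-KD embryos, injected with siRNAs against both H3.3 genes, *H3f3a* and *H3f3b*. The comparisons ask what the loss of the mitochondrial fusion protein MFN1, or of the histone variant H3.3, does to the RNA of these genes. Both are knockdowns and not deletions, all 3 groups were injected, and each library was 1 pool of whole embryos, for which the labels give 5 to 10 embryos and the methods the upper of these numbers. The study calls the libraries of a group biological replicates, but nothing states that the pools came from separate days or parents, so p-values measure the spread between these pools, which may be technical. In such bulk samples fewer cells of a type and less RNA per cell cannot be told apart.

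H3K9 methylation marks silent chromatin. SETDB1 writes it at retrotransposons and imprinted genes after being brought there by TRIM28 (KAP1) and zinc-finger proteins, with ATF7IP as its stabilizing partner. EHMT1 (GLP) and EHMT2 (G9a) form a heterodimer that writes mono- and dimethylation in euchromatin, and SUV39H1 and SUV39H2 write trimethylation at pericentric repeats. CBX5, CBX1 and CBX3, which are HP1α, HP1β and HP1γ, bind the methylated lysine through their chromodomains. In the early embryo much of this system is rebuilt after fertilization, and H3.3 itself is a substrate of these enzymes.

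The targeted genes were low in their own knockdown. *H3f3a* averaged 1932 ± 293 FPKM in control (SD, n = 3) and 149 ± 28.3 in H3.3-KD, and *H3f3b* averaged 2988 ± 154 and 246 ± 70.3 (adjusted p of 7.23e-06 and 8.96e-06, limma). *Mfn1* was 51.57, 22.55 and 23.77 FPKM in control and 9.54, 4.40 and 1.15 in MFN1-KD, a fall to 15.4% of the control mean (log2 fold change -2.66 ± 0.58 SE, adjusted p of 0.0431). This call was kept in 8 of 18 alternatives, and the adjusted p ranged from 0.0244 to 0.158 over them, with 0.0728 without MFN1-KD replicate 3. In H3.3-KD, *Mfn1* was 100.24, 89.52 and 40.02 FPKM (adjusted p of 0.143). Between 21643 and 22507 entries were above 0 in control, 23655 to 24820 in H3.3-KD embryos and 15577 to 20842 in MFN1-KD, the lowest in MFN1-KD replicate 3. All 10 markers of 8-cell embryos were above 0 in every group. Their summed level was 10890 to 14080 FPKM in control, 7024 to 8787 in H3.3-KD embryos and 16890 to 20560 in MFN1-KD, nearly all of it *Dppa3*. In H3.3-KD only *Dppa3* and *Padi6* had means below control, while *Pou5f1* averaged 7.24 FPKM in control and 262 in H3.3-KD. In MFN1-KD *Dppa3*, *Tfap2c*, *Klf5* and *Cdh1* averaged above control and the other markers below. The 6 transcripts of the 2-cell stage summed to 23.8 to 30.6 FPKM in control, 221 to 521 in H3.3-KD embryos and 17.9 to 88.3 in MFN1-KD, most of it *Tdpoz4* in H3.3-KD. The 6 oocyte markers summed to 24.4 to 48.3 FPKM over all libraries. Cumulus and granulosa markers summed to at most 0.89 FPKM, with *Fshr* and *Cyp11a1* listed at 0 in every library, and the 4 sperm markers summed to at most 2.93. The 5 sex-linked markers summed to 34.3 to 51.9 FPKM in control, 2.13 to 18.6 in H3.3-KD embryos and 2.65 to 86.9 in MFN1-KD. That sum adds *Xist*, a marker of female embryos, to Y-linked genes, so it does not give the sex of a pool. *Xist* and the Y-linked *Eif2s3y* were 2.12 and 0 FPKM in H3.3-KD replicate 1, and 2.58 and 0.03 in MFN1-KD replicate 3. The part of stage, sex or library complexity in the results was not tested.

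In H3.3-KD embryos *Cbx3* fell to 20.5% of its control level and *Ehmt1*, *Suv39h1* and *Suv39h2* rose by 2.16, 2.08 and 2.24 times on the means. At an adjusted p under 0.05, 3 of the 10 genes were higher, where 21.8% of all genes tested were, and 1 was lower, where 9.12% were. In MFN1-KD none of the 10 was called by limma in either direction, where 1.15% of all genes were higher and 2.2% lower. At an unadjusted p under 0.05, 4 of the 10 passed in MFN1-KD (*Trim28*, *Suv39h2* and *Cbx3* higher and *Cbx1* lower), where 23.2% of all genes did. Between the knockdowns, which is a comparison without the shared control libraries, *Ehmt1* and *Suv39h1* were higher in H3.3-KD and *Cbx3* was lower, where 27.6% of all genes were higher and 11.0% lower. At the threshold of the study, over 2-fold with an unadjusted p under 0.05, 2 members rose and 1 fell in H3.3-KD (23.9% and 9.39% of all genes), 0 changed in MFN1-KD (5.02% higher and 9.05% lower) and 2 were higher and 1 lower between the knockdowns (29.1% and 11.0%). A count of 3 higher among 10 genes is close to the share among all genes.

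The levels of all genes moved as well. The median log2 fold change of the 13011 genes was 0.26 in H3.3-KD, -0.08 in MFN1-KD and 0.39 for H3.3-KD over MFN1-KD, and median-ratio scaling of the libraries moved the first to -0.01 and the third to 0.06. That scaling also took the all-gene calls in H3.3-KD from 2841 higher and 1187 lower to 2076 and 1752. The median over the 10 members was 0.43, 0.12 and 0.05. Relative to the median of all genes, the log2 fold changes in H3.3-KD were 0.82 for *Ehmt1*, 0.76 for *Suv39h1*, 0.67 for *Suv39h2* and -2.55 for *Cbx3*. Changes also went with base composition. Among genes whose longest transcript had a GC content within 1 point of that of *Ehmt2* (60.8%) the H3.3-KD median was 1.25 on the log2 scale over 289 genes, and around *Cbx3* (38.7%) it was -0.26 over 505 genes.

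**Figure D1:**
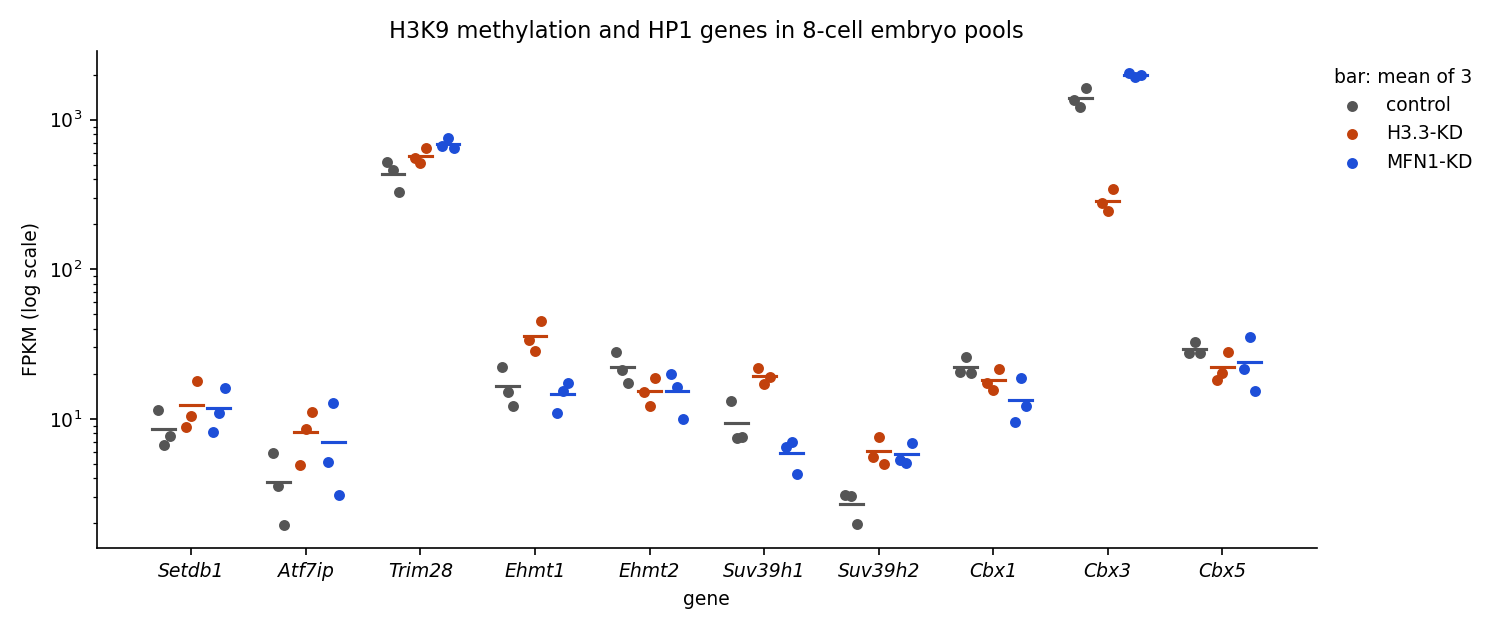
FPKM of the 10 genes (log axis) in the 9 libraries, with 1 point per library and a bar at the mean of the 3 libraries of a group. *Cbx3* lay between 244 and 343 in H3.3-KD and above 1214 in every library of control and MFN1-KD, and *Suv39h2* lay below 3.1 in control and at 5 or above in both knockdowns.

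Promoters of the 4 genes called in H3.3-KD are shown because 3 of them moved together and the fourth moved the other way. Each window is RefSeq sequence of GRCm38.p6 (the assembly also called mm10) from 250 bases before to 50 after the start site nearest to the annotated start of the gene, written 5′ to 3′ on the strand of the gene. For *Cbx3* that start site lay 256 bases downstream of the annotated start, so its whole window lies inside the annotated gene. For *Ehmt1*, *Suv39h1* and *Suv39h2* the distance was 5, 0 and 45 bases. Capitals mark the motifs searched on both strands: the GC box, spelled GGGCGG, the CCAAT box, the TATA box with the letters TATAAA, the ETS motif, written CCGGAAG, the cyclic AMP response element (CRE), which is TGACGTCA, the E-box, here CACGTG, and the YY1 motif, searched as AAGATGGCG.
*Cbx3*, chr6:51470366-51470665, plus strand: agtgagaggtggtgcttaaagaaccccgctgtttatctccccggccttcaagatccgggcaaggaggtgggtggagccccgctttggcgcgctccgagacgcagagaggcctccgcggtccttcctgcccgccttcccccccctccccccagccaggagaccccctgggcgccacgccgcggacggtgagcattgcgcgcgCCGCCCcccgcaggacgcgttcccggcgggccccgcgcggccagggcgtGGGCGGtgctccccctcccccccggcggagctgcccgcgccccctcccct
*Ehmt1*, chr2:24919560-24919859, minus strand: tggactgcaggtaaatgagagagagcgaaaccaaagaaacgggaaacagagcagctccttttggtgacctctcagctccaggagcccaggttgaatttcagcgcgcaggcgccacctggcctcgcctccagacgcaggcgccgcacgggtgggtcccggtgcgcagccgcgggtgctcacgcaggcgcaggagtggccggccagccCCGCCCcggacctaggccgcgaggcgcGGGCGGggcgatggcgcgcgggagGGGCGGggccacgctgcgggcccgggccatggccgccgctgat
*Suv39h1*, chrX:8074711-8075010, minus strand: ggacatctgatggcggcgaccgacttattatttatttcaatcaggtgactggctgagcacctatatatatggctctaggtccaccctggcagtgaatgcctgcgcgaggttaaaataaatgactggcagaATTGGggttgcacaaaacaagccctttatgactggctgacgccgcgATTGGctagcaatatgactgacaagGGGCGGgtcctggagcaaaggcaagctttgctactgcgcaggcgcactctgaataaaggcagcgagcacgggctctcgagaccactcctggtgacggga
*Suv39h2*, chr2:3474937-3475236, minus strand: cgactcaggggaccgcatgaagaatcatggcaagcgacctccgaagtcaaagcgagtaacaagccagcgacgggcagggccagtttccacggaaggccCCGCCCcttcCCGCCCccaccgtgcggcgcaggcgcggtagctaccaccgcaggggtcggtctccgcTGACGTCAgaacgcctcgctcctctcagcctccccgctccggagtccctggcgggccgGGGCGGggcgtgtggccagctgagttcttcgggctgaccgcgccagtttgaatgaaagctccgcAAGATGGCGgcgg
The GC box was found 2, 3, 1 and 3 times in these windows in that order. It was present in 13 of the 14 windows that RefSeq gives for the 10 members and in 35.7% of all 32851 windows, and the TATA box was in none of the 14 and in 13.6% of all. *Suv39h1* had 2 CCAAT boxes (37.4% of all windows hold one), and *Suv39h2* had 1 CRE (1.79% of all) and 1 YY1 motif (1.4% of all). The ETS motif and the E-box, found in 8.86% and 7.15% of all windows, were in none of these 4. The windows of *Cbx3*, *Ehmt1* and *Suv39h2* held 34, 34 and 33 CpG sites and that of *Suv39h1* 15, against a median of 7 over all windows. Thus the called genes shared a GC box and CpG sites with most of the other members, whichever way they moved.

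In control embryos *Cbx3* was by far the most abundant of the 10, and the level per length ran over a wide range. On the FPKM scale, which is per length, the control means were 1402 for *Cbx3*, 436.5 for *Trim28*, 29.1 for *Cbx5*, 22.3 for *Ehmt2*, 22.2 for *Cbx1*, 16.5 for *Ehmt1*, 9.34 for *Suv39h1*, 8.57 for *Setdb1*, 3.80 for *Atf7ip* and 2.70 for *Suv39h2*. *Cbx3* ranked 172nd and *Suv39h2* 8960th in control among the genes tested. The control ranges of neighbours in this order did not overlap between *Cbx3* and *Trim28*, *Trim28* and *Cbx5*, and *Setdb1* and *Atf7ip*. The control ranges of all other neighbours overlapped, though *Ehmt1* was above *Suv39h1* in each of the 3 libraries.

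*Cbx3*, which encodes HP1γ (chromosome 6, 51470360 to 51483704, plus strand), showed the clearest change of the set. It was 1363.01, 1214.42 and 1627.72 FPKM in control, 276.22, 243.55 and 343.09 in H3.3-KD embryos and 2042.54, 1932.86 and 2001.92 in MFN1-KD. The 3 groups did not overlap, with H3.3-KD lowest and MFN1-KD highest. Against control its H3.3-KD value was a log2 fold change of -2.28 ± 0.19 (SE, limma on log2 of FPKM + 1, adjusted p of 5.48e-05), the 213th lowest of all genes tested. It ranged from -2.72 to -2.17 over 18 alternatives, each with an adjusted p under 0.05. In MFN1-KD it was 0.52 ± 0.19 (adjusted p of 0.134, unadjusted 0.0187), and H3.3-KD over MFN1-KD gave -2.80 ± 0.19 (adjusted p of 1.63e-05). Transcripts of 19 other annotated genes matched *Cbx3* at 90% identity or more over at least 200 bases, most of them processed pseudogenes. The closest, *Cbx3-ps6*, matched at 99.8% over 552 bases and averaged 1.25 FPKM in control and 2.39 in H3.3-KD. The 18 copies listed in the files summed to 1.96 to 2.80 FPKM in control, 3.34 to 5.36 in H3.3-KD embryos and 0.89 to 3.89 in MFN1-KD, far below *Cbx3* itself. How reads shared by copies were assigned is not given in the sources used here.

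The other HP1 genes did not pass the test in either knockdown. *Cbx5*, which encodes HP1α (chromosome 15, minus strand), was 27.38, 32.43 and 27.35 FPKM in control, 18.27, 20.28 and 27.88 in H3.3-KD embryos and 21.41, 34.99 and 15.24 in MFN1-KD. Its groups overlapped, with log2 fold changes of -0.39 ± 0.32 (adjusted p of 0.382) and -0.35 ± 0.32 (adjusted p of 0.556). With library weights *Cbx5* was called lower in H3.3-KD (-0.56, adjusted p of 0.0383), in 1 of 18 alternatives. *Cbx1*, which encodes HP1β (chromosome 11, plus strand), was 20.54, 25.72 and 20.24 in control, 17.43, 15.64 and 21.68 in H3.3-KD embryos and 9.45, 18.74 and 12.13 in MFN1-KD. All 3 MFN1-KD values lay below all 3 control values, a difference of -0.72 ± 0.30 that did not pass the adjusted test (adjusted p of 0.182, unadjusted 0.0358), and in H3.3-KD it was -0.27 ± 0.30 (adjusted p of 0.529). A processed pseudogene on the opposite strand inside *Cbx1*, *Gm11517*, was listed at 2605 to 6406 FPKM but shared no exonic base with it.

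The balance within the HP1 family shifted with *Cbx3*. The sum of the 3 genes was 1453 ± 205 FPKM in control (SD, n = 3), 328 ± 58.3 in H3.3-KD embryos and 2030 ± 43.4 in MFN1-KD. *Cbx3* made up 96.4% ± 0.883 of the sum in control, 87.7% ± 0.755 in H3.3-KD embryos and 98.1% ± 0.746 in MFN1-KD, while *Cbx5* made up 2.04%, 6.74% and 1.18% and *Cbx1* 1.56%, 5.57% and 0.666%. *Cbx3* thus remained the most abundant HP1 transcript in every library. The log2 ratio of *Cbx3* to *Cbx1* was 5.92 ± 0.38 in control, 3.90 ± 0.02 in H3.3-KD embryos and 7.16 ± 0.51 in MFN1-KD, without overlap between the groups. Its difference from control was -2.01 and 1.24 (exact two-sided permutation p of 0.1 each, the smallest that 3 libraries against 3 allow). That of *Cbx5* to *Cbx1* was 0.38 ± 0.05, 0.26 ± 0.17 and 0.76 ± 0.41, and both knockdowns overlapped control (exact permutation p of 0.3 and 0.4). The sign of this second ratio turned in both knockdowns with the trend of GC content and transcript length removed (0.19 and -0.09).

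**Figure D2:**
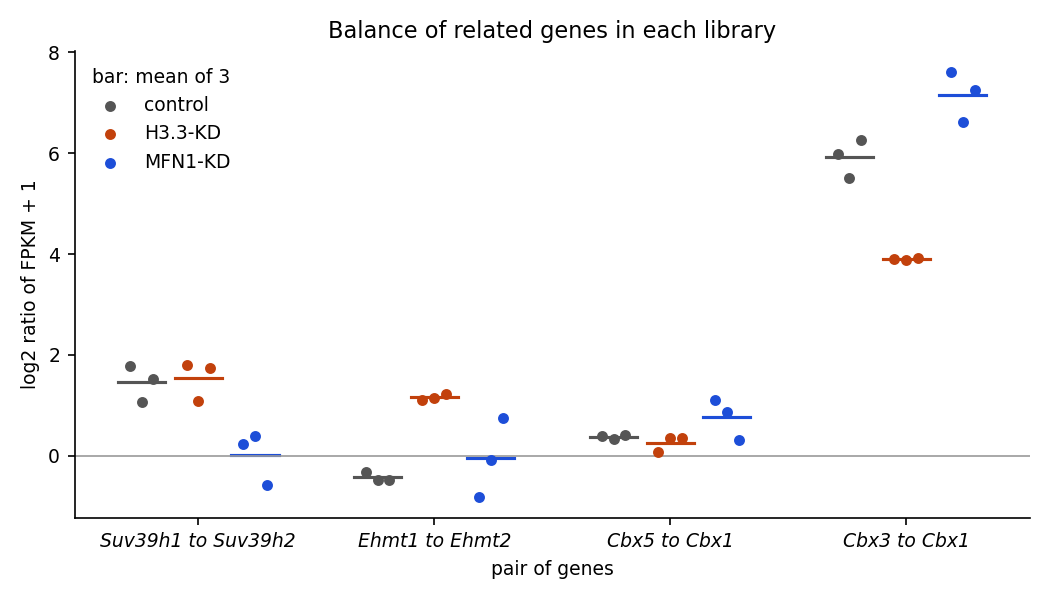
Log2 ratio of FPKM + 1 between related genes (vertical axis, no unit) in each of the 9 libraries, with a bar at the mean of 3. *Ehmt1* to *Ehmt2* lay between 1.11 and 1.22 in H3.3-KD and between -0.48 and -0.32 in control, and *Cbx3* to *Cbx1* was lowest in H3.3-KD and highest in MFN1-KD.

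*Cbx3* and *Cbx5* each start close to a gene that runs the other way and encodes an RNA-binding hnRNP protein. By RefSeq start sites, *Hnrnpa2b1* begins 722 bases upstream of *Cbx3*, in a region known for CpG islands that stay open in most cells, and *Hnrnpa1* begins 545 bases upstream of *Cbx5*. *Hnrnpa2b1* was 370.97, 350.44 and 294.46 FPKM in control, 874.74, 690.29 and 925.94 in H3.3-KD embryos and 463.61, 583.04 and 973.67 in MFN1-KD. It was thus higher in every H3.3-KD library than in any control library, opposite to *Cbx3*, by 1.29 ± 0.27 on the log2 scale (adjusted p of 0.00516). All 3 MFN1-KD libraries also lay above all 3 control libraries, by 0.93 ± 0.27 (adjusted p of 0.0818). That was the same direction as *Cbx3* in MFN1-KD, and the *Hnrnpa2b1* values of the 2 knockdowns overlapped. After median-ratio and upper-quartile scaling the H3.3-KD value of *Hnrnpa2b1* was 0.95 and 0.86, with adjusted p of 0.0507 and 0.0519. *Hnrnpa1* was 714.97, 479.34 and 525.61 in control, 1306.69, 1032.31 and 1152.66 in H3.3-KD embryos and 767.89, 705.09 and 624.76 in MFN1-KD. It rose in H3.3-KD by 1.03 ± 0.20 on the log2 scale (adjusted p of 0.00352), where *Cbx5* averaged 76.2% of control, and in MFN1-KD it was 0.30 ± 0.20 (adjusted p of 0.397). The only other divergent neighbour within 1000 bases, the long noncoding *Gm44140* beside *Atf7ip*, was at most 0.33 FPKM and was not tested. These neighbours were looked for after the member values had been seen.

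**Figure D3:**
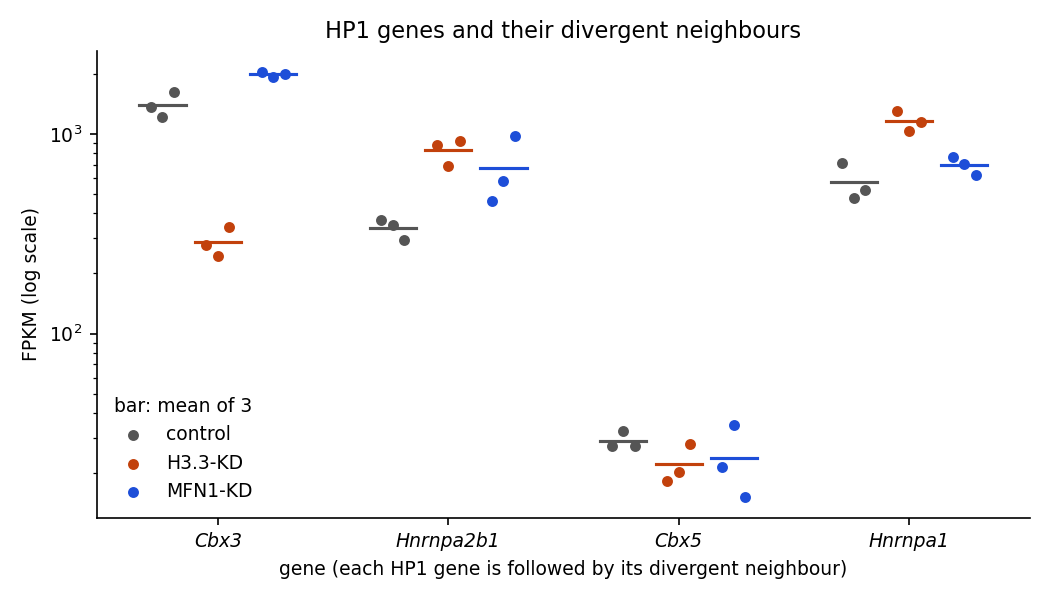
FPKM (log axis) of *Cbx3* and *Cbx5*, each followed by its divergent neighbour, in the 9 libraries, with a bar at the mean of 3. In H3.3-KD *Cbx3* lay at 244 to 343 and *Hnrnpa2b1* at 690.29 to 926, whereas control had *Cbx3* above 1214 and *Hnrnpa2b1* at 371 or below. In MFN1-KD both lay above every control library, *Hnrnpa2b1* at 463.61 to 973.67.

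*Ehmt1*, the GLP subunit (chromosome 2, 24789928 to 24919614, minus strand), rose in H3.3-KD while its partner *Ehmt2* did not. *Ehmt1* was 22.28, 15.00 and 12.22 FPKM in control, 33.62, 28.19 and 45.13 in H3.3-KD embryos and 10.85, 15.38 and 17.47 in MFN1-KD. Every H3.3-KD library was above every control and MFN1-KD library, and the other 2 groups overlapped. Against control its H3.3-KD value was a log2 fold change of 1.08 ± 0.32 (adjusted p of 0.0254), in MFN1-KD -0.15 ± 0.32 (adjusted p of 0.815) and between the knockdowns 1.23 ± 0.32 (adjusted p of 0.0113). The H3.3-KD call was lost after median-ratio scaling (0.76, adjusted p of 0.0948), with the GC and length trend removed (0.52, adjusted p of 0.213), and without control replicate 2 (adjusted p of 0.0873), control replicate 3 (0.106), H3.3-KD replicate 1 (0.0561) or H3.3-KD replicate 3 (0.0839). The call between the knockdowns was kept in 15 of 18 alternatives and lost after both scalings and the GC correction (adjusted p of 0.0554, 0.0725 and 0.0938).

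*Ehmt2*, the G9a subunit (chromosome 17, 34898469 to 34914052, plus strand), was 28.01, 21.33 and 17.45 FPKM in control, 14.99, 12.14 and 18.82 in H3.3-KD embryos and 19.80, 16.30 and 10.01 in MFN1-KD. Both knockdowns averaged about 69% of control and overlapped it, with log2 fold changes of -0.51 ± 0.33 (adjusted p of 0.264) and -0.53 ± 0.33 (adjusted p of 0.361). In H3.3-KD its value became -1.95 with the GC and length trend removed (adjusted p of 0.00111), and -0.91 with upper-quartile scaling and -0.58 with library weights (adjusted p of 0.0431 and 0.0403). The log2 ratio of *Ehmt1* to *Ehmt2* is measured within a library and does not depend on how libraries are scaled, apart from the 1 FPKM added. It was -0.43 ± 0.09 in control, 1.11, 1.15 and 1.22 in the H3.3-KD libraries, and -0.05 ± 0.78 in MFN1-KD. In FPKM, *Ehmt1* was 0.741 times *Ehmt2* in control, 2.33 times in H3.3-KD embryos and 0.948 times in MFN1-KD. The H3.3-KD ratios did not overlap those of control (difference 1.59, exact permutation p of 0.1, the smallest possible), and the difference was 1.56 to 1.64 when 1 library was left out and 2.47 with the GC and length trend removed. The MFN1-KD ratios overlapped control (difference 0.38, exact permutation p of 0.6).

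*Suv39h1* (chromosome X, 8061171 to 8074760, minus strand) differed most between the knockdowns among the methyltransferase genes. It was 13.12, 7.38 and 7.51 FPKM in control, 21.90, 17.08 and 19.15 in H3.3-KD embryos and 6.44, 6.99 and 4.29 in MFN1-KD. The 3 groups did not overlap, with H3.3-KD highest and MFN1-KD lowest. The log2 fold change between the knockdowns was 1.58 ± 0.32 (adjusted p of 0.00336), and it stayed under an adjusted p of 0.05 in all 18 alternatives, at 0.78 to 1.72. Against control it was 1.02 ± 0.32 in H3.3-KD (adjusted p of 0.0338) and -0.56 ± 0.32 in MFN1-KD (adjusted p of 0.325). The H3.3-KD call was lost after median-ratio scaling (0.70, adjusted p of 0.0795) and with the GC and length trend removed (0.33, adjusted p of 0.387). It was also lost when control replicate 2 or 3 (adjusted p of 0.131 and 0.123) or any H3.3-KD library was left out (adjusted p of 0.101, 0.0672 and 0.0717 for replicates 1 to 3). An antisense gene, *Gm14820*, covered 767 of the 5270 exonic bases of *Suv39h1* and was 3.11 to 6.26 FPKM in control, 5.51 to 11.65 in H3.3-KD embryos and 0 to 3.77 in MFN1-KD. The library method did not mark strand, so reads from those bases cannot be told apart. Of the X-linked and Y-linked markers, *Xist* was 3.61 to 23.7 FPKM in control, 0.07 to 2.63 in H3.3-KD embryos and 2.58 to 42.6 in MFN1-KD, and the Y-linked *Eif2s3y* was 23.0 to 38.9, 0 to 10.4 and 0.03 to 34.8. *Eif2s3y* was listed at 0 in H3.3-KD replicate 1 and at 0.03 in MFN1-KD replicate 3. Without the first or the second of these libraries, *Suv39h1* between the knockdowns was 1.49 and 1.39 on the log2 scale (adjusted p of 0.0154 and 0.00747). In the remaining libraries *Eif2s3y* was 10.41 and 7.01 FPKM in H3.3-KD and 34.18 and 34.81 in MFN1-KD. These fits therefore do not even out the sex of the pools, and its part in the *Suv39h1* difference was not tested.

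*Suv39h2* (chromosome 2, 3455815 to 3475031, minus strand), the paralog most active in germ cells, was the lowest of the 10 and higher in both knockdowns. It was 3.09, 3.03 and 1.97 FPKM in control, 5.58, 7.54 and 5.00 in H3.3-KD embryos and 5.33, 5.08 and 6.92 in MFN1-KD. All 6 knockdown libraries lay above all 3 control libraries, and the 2 knockdowns overlapped. Its log2 fold changes were 0.93 ± 0.31 in H3.3-KD (adjusted p of 0.0450), which passed, and 0.88 ± 0.31 in MFN1-KD (adjusted p of 0.131, unadjusted 0.0177), which did not, against the same control libraries. The H3.3-KD call was kept in 5 of 17 alternatives and was lost after median-ratio scaling (0.66, adjusted p of 0.147), with the GC and length trend removed (0.78, adjusted p of 0.0848), in the fit with the replicate block (adjusted p of 0.0764), without any single control or H3.3-KD library (adjusted p of 0.0578 to 0.160) and without MFN1-KD replicate 1 (0.0547). It shared 357 of its 4410 exonic bases with *Dclre1c* on the other strand, which was 4.75 to 9.32 FPKM in control, 6.67 to 21.8 in H3.3-KD embryos and 8.25 to 9.70 in MFN1-KD.

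The balance of the 2 SUV39H genes was compared within each library. The log2 ratio of *Suv39h1* to *Suv39h2* was 1.45 ± 0.37 in control, 1.54 ± 0.40 in H3.3-KD embryos and 0.02 ± 0.52 in MFN1-KD. In FPKM, *Suv39h1* was 3.46, 3.21 and 1.02 times *Suv39h2* in the 3 groups. The H3.3-KD ratios overlapped control (difference 0.09, exact permutation p of 0.7, with a sign that turned without control replicate 2 and in 4 other alternatives). All 3 MFN1-KD ratios lay below all 3 control ratios (difference -1.44, exact permutation p of 0.1, the smallest possible), and the difference stayed between -1.64 and -1.14 when 1 library was left out.

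*Trim28*, the corepressor that brings SETDB1 to zinc-finger proteins (chromosome 7, plus strand), was 522.75, 458.89 and 327.79 FPKM in control, 556.82, 510.45 and 645.59 in H3.3-KD embryos and 666.03, 753.67 and 648.52 in MFN1-KD. Every MFN1-KD library was above every control library, a log2 fold change of 0.68 ± 0.21 that did not pass the adjusted test (adjusted p of 0.0919, unadjusted 0.00795, and adjusted p of 0.0505 to 0.296 over the alternatives). In H3.3-KD it was 0.41 ± 0.21 with overlapping libraries (adjusted p of 0.165). That sign depended on the processing: upper-quartile scaling gave -0.02, and removing the GC and length trend gave -1.0 (adjusted p of 0.00404), at a transcript GC content of 59.6%, where 441 genes of like content had a median of 1.08. Between the knockdowns it was -0.28 ± 0.21 (adjusted p of 0.320), and it was lower in H3.3-KD past the threshold after both scalings and the GC correction (-0.67, -0.76 and -1.80).

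*Setdb1* (chromosome 3, minus strand) and *Atf7ip* (chromosome 6, plus strand), the methyltransferase and its partner, did not pass the test in any comparison. *Setdb1* was 11.37, 6.71 and 7.63 FPKM in control, 8.75, 10.50 and 17.81 in H3.3-KD embryos and 8.12, 10.95 and 16.07 in MFN1-KD, with log2 fold changes of 0.45 ± 0.37 (adjusted p of 0.378) and 0.39 ± 0.37 (adjusted p of 0.558). *Atf7ip* was 5.92, 3.55 and 1.94 in control, 4.90, 8.49 and 11.05 in H3.3-KD embryos and 5.11, 12.73 and 3.11 in MFN1-KD, with 0.96 ± 0.51 (adjusted p of 0.180) and 0.63 ± 0.51 (adjusted p of 0.487). For both genes the libraries of each knockdown overlapped those of control. With library weights *Atf7ip* was called higher in H3.3-KD (0.97, adjusted p of 0.0293), the only 1 of its 17 alternatives to do so. A long noncoding gene, *Gm4349*, matched *Setdb1* at 99.4% over 645 bases and averaged 2.61 FPKM in control, 31.8 in H3.3-KD embryos and 3.03 in MFN1-KD, so the *Setdb1* values in H3.3-KD are uncertain.

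**Figure D4:**
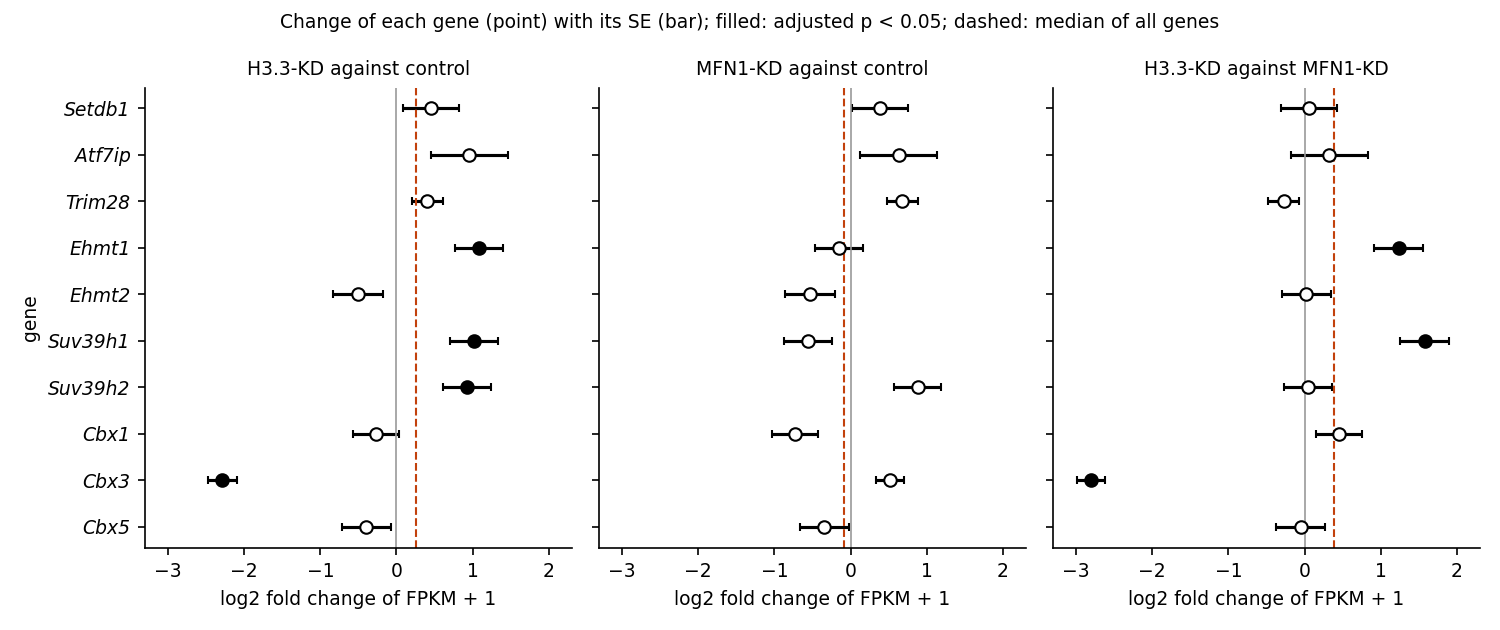
Log2 fold change of FPKM + 1 (horizontal axis) of each gene with its standard error in the 3 comparisons, filled where the adjusted p was under 0.05, with a dashed line at the median of all genes. In H3.3-KD against control, *Cbx3* lay at -2.28 and *Ehmt1*, *Suv39h1* and *Suv39h2* at 0.93 to 1.08, and in MFN1-KD no gene was filled.

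**Figure D5:**
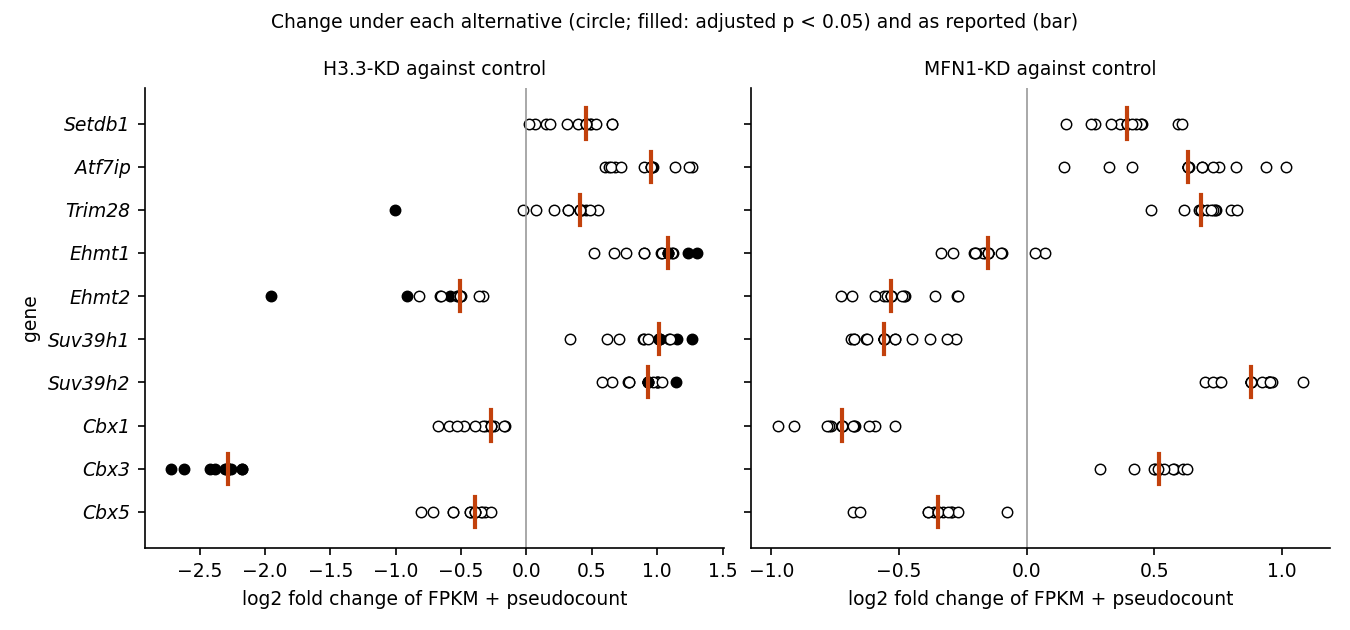
Log2 fold change (horizontal axis) of each gene under every alternative (circles, filled where the adjusted p was under 0.05) and as reported (bar) in both knockdowns against control. *Cbx3* in H3.3-KD was filled in all 18 alternatives, whereas *Suv39h2* was filled in 5 of 17.

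Of 40 other genes of the pathway, 36 were tested, and the shares called in H3.3-KD were near those of all genes. In H3.3-KD 9 (25%) passed as higher and 3 (8.33%) as lower, beside 21.8% and 9.12% of all genes. In MFN1-KD 0 were called by limma and 9 (25%) had an unadjusted p under 0.05, beside 23.2% of all genes. In the direct comparison of the knockdowns 8 (22.2%) passed as higher in H3.3-KD than in MFN1-KD and 7 (19.4%) as lower, beside 27.6% and 11.0%. Leaving out 1 control or H3.3-KD library gave 6 or 7 higher and 1 or 2 lower. Over all 13011 genes the same fits called 1763 to 2568 higher and 669 to 995 lower, beside 2841 and 1187 with all libraries. The single lower call when control replicate 2 or 3, or else replicate 2 or 3 of H3.3-KD, was left out was *Trim33*, which stayed called in all of these fits. Median-ratio scaling gave 6 higher and 7 lower, beside 2076 and 1752 of all 12948 genes. Removing the GC and length trend gave 6 higher and 4 lower, beside 1483 and 1566 of all 12818 genes. *Tasor* had no GC value and was not in that last fit. The medians over the lists in H3.3-KD were 0.39 for the other methyltransferases and partners, -0.68 for the HUSH complex, 0.17 for the demethylases and 0.65 for heterochromatin partners, beside 0.26 for all genes.

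Among the other methyltransferases and partners, 1 of 5 tested was higher and 0 lower in H3.3-KD. That gene was *Wiz*, a zinc-finger partner of the EHMT1-EHMT2 dimer, which averaged 1.07 ± 0.441 FPKM in control and 7.45 ± 1.95 in H3.3-KD (log2 fold change 2.02, adjusted p of 0.00516). *Wiz* lost its call with the GC and length trend removed. *Atf7ip2* had the smallest p of the list in MFN1-KD, with a mean of 21.3 in control and 36.5 in MFN1-KD (0.71, adjusted p of 0.200). *Mecom* and *Prdm16* were below the filter. In the HUSH complex, which recruits SETDB1 to silence transposons, 1 of 4 was lower in H3.3-KD. *Tasor*, its scaffold, averaged 10.4 FPKM in control, 4.53 in H3.3-KD embryos and 26.5 in MFN1-KD. It fell by 1.05 in H3.3-KD (adjusted p of 0.0267), was 1.22 in MFN1-KD (adjusted p of 0.0592) and differed between the knockdowns by -2.27 (adjusted p of 0.000404). With 1 control or H3.3-KD library left out the fall in H3.3-KD was not called (adjusted p of 0.0522 to 0.0956).

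Of the H3K9 demethylases, 3 of 9 tested (33.3%) rose and 0 fell in H3.3-KD, where 21.8% of all genes rose. *Kdm4a*, which removes trimethylation, averaged 1.26 FPKM in control, 7.90 in H3.3-KD embryos and 0.757 in MFN1-KD (log2 fold change in H3.3-KD 2.00, adjusted p of 0.00532). The others were *Kdm4b*, at 1.21, and *Jmjd1c*, from 3.42 FPKM in control to 9.02, named after their values were seen. Both lost their calls after either scaling, and in some fits with 1 control or H3.3-KD library left out (adjusted p of up to 0.145 and 0.104). *Kdm4b* also lost its call with the GC and length trend removed. *Kdm7a* had the smallest p of this list in MFN1-KD (0.87, adjusted p of 0.217), and *Kdm4d* and *Phf2* were below the filter. Of the 18 heterochromatin partners, 5 (27.8%) rose and 2 (11.1%) fell in H3.3-KD, where 21.8% and 9.12% of all genes did. *Lmnb1*, which encodes lamin B1 of the nuclear lamina, had the largest change of the lists, from 1.71 FPKM in control to 43.8 in H3.3-KD embryos and 2.52 in MFN1-KD (log2 fold change 4.05, adjusted p of 2.2e-05). *Trim33*, a relative of *Trim28*, averaged 63.9 in control, 22.4 in H3.3-KD embryos and 131 in MFN1-KD, a fall of 1.48 in H3.3-KD (adjusted p of 0.00346) and a value of 1.05 in MFN1-KD (adjusted p of 0.0696). The remaining calls, named after their values were seen, were *Chaf1a* and *Chaf1b* of the histone chaperone CAF-1, *Zfp57*, which guides TRIM28 to imprinted genes, *Cdca8* of the chromosomal passenger complex and the remodeler *Smarcad1*. *Chaf1a* went from 4.59 FPKM in control to 11.9 in H3.3-KD, the next 3 rose by 1.42 to 1.99 on the log2 scale, and *Smarcad1* fell by 0.93. *Chaf1a* lost its call after either scaling and with the GC and length trend removed, *Smarcad1* with that trend removed, and both in some fits with 1 control or H3.3-KD library left out (adjusted p of up to 0.157 and 0.102).

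The gene most like a member over the 9 libraries, among the 5925 genes outside the set that averaged 10 FPKM or more, was found by Pearson's r of log2(FPKM + 1) as a description. The r was 0.986 for *Cbx3* with *Fcf1*, a ribosomal RNA processing factor, 0.983 for *Suv39h1* with *Aqp9*, a glycerol and water channel, and 0.982 for *Ehmt1* with *Gcdh*, a mitochondrial dehydrogenase. *Fcf1* was 1306.58 to 1741.58 FPKM in control, 463.24 to 512.92 in H3.3-KD embryos and 1868.17 to 2154.76 in MFN1-KD, the same order of groups as *Cbx3*. Further values of r were 0.989 for *Atf7ip* with *Dbf4*, 0.975 for *Trim28* with *Ing1*, 0.971 for *Suv39h2* with *Pdgfa*, 0.959 for *Setdb1* with *Prmt6*, 0.945 for *Cbx5* with *Cbwd1* and 0.902 for *Ehmt2* with *Zfp949*. Among the members, *Ehmt1* and *Suv39h1* varied most alike (r = 0.854) and *Suv39h1* and *Cbx3* most oppositely (r = -0.904). All these values share the same 9 libraries, the group differences described above and the choice of the best of many genes.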

How the data were processed

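RNA was measured in 9 libraries of mouse 8-cell embryos. Per the labels and the study's methods, the authors amplified cDNA by Smart-Seq2 with an oligo-dT primer, sequenced paired reads of the sheared cDNA, trimmed them with cutadapt 1.16 and mapped them to mm10 with STAR. The authors deposited 1 FPKM value per gene and library, rounded to 2 decimals. The program behind FPKM, its annotation and its strand setting are not given in the sources used here. FPKM is a share of a library, so a change in a few abundant genes moves all others, and it keeps no read counts. Depth is therefore unknown, and no interval from counts is given.

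Genes averaging 1 FPKM or more across libraries were tested. A linear model without covariates on log2(FPKM + 1) of the 9 libraries was fitted by limma 3.58.1 (trend and robust options) in R 4.3.3, with Benjamini-Hochberg adjustment over all 13011 genes and a threshold of 0.05. Fold changes on this scale understate those of low genes. The pipeline was tested on simulated log values. These held no shift in library scaling and no trend with GC content or length, so the test does not cover them. The study tested counts, and counts were not used here. Ratios between genes were compared by exact two-sided permutation tests. Alternatives were 2 other scalings, other filters, a pseudocount of 0.1, the 6 libraries compared alone, the replicate number as a block, library weights, removal of GC and length trends by splines, the threshold of the study and each library left out.

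Positions, GC content and lengths were from GENCODE M21 (GRCm38), and promoters from RefSeq GRCm38.p6. Copies were found with blastn 2.17.0. All 10 members matched both by symbol. *Tasor* was listed under that symbol in the deposited values but had no GENCODE match under it, so it has no position, length or GC content. Named genes were all members, the siRNA targets, the gene with the smallest p of each of 4 lists in each knockdown, and the gene most correlated with each member, 1 of which is not reported here. The members and lists were chosen with earlier results of these data known. The file of each library held no other column of values.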

Additional observations from a re-analysis of the deposited data

How the results depend on the processing

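*Cbx3* in H3.3-KD kept its direction and call in every alternative run against either group, and so did *Suv39h1* between the knockdowns, while the 3 higher calls against control did not. In H3.3-KD against control, the 3 higher members became 0 after median-ratio scaling, 0 after upper-quartile scaling, 0 without the filter on low values and 0 with the GC and length trend removed, and 0 to 3 when 1 library was left out. With library weights there were 4 higher members, *Atf7ip* being the one added. The 1 lower member became 2 with upper-quartile scaling, 3 with library weights and 3 with the GC and length trend removed. Calls over all genes moved as well, from 2841 higher and 1187 lower of 13011. They were 2076 and 1752 of 12948 with median-ratio scaling, and 1846 and 1971 of 12938 with upper-quartile scaling. Without the filter they were 2621 and 837 of 32672, with library weights 4734 and 2246 of 13011, and with the trend removed 1483 and 1566 of 12818. When 1 library was left out they were 1763 to 3441 and 669 to 1629 of 13011. Between the knockdowns, the 2 higher members became 1 under both scalings and the GC correction, and the 1 lower member became 2, 2 and 3. Over all genes, the calls there went from 3591 higher and 1437 lower to 2660 and 2122, 2424 and 2370, and 1782 and 1831. No member was called in MFN1-KD under any alternative, but some alternatives called hardly any gene there. Over all genes, 0 were higher and 0 lower with the 6 libraries compared alone, and without control replicate 2 or 3. Without the filter on low values 0 were higher and 2 lower. The most calls came with library weights, 570 higher and 823 lower of 13011. In the alternatives added after seeing the data, the 3 lower pathway genes in H3.3-KD became 7 with median-ratio and 8 with upper-quartile scaling. They became 1 to 2 when 1 control or H3.3-KD library was left out, where 669 to 995 of all 13011 genes were lower.

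The *Suv39h1* to *Suv39h2* difference in H3.3-KD turned to -0.049 with a pseudocount of 0.1 and to -0.45 with the GC and length trend removed, and was -0.11 to 0.32 when 1 library was left out. *Ehmt1* to *Ehmt2* moved to 2.47 in H3.3-KD with that trend removed, and in MFN1-KD was -0.019 to 0.76 when 1 library was left out. *Cbx5* to *Cbx1* became 0.19 in H3.3-KD embryos and -0.085 in MFN1-KD after removing the trend. *Trim28* in H3.3-KD became -0.024 with upper-quartile scaling and -1.0 with the trend removed. *Ehmt1* in MFN1-KD turned to 0.074 without control replicate 1 and 0.032 without MFN1-KD replicate 1, in a leave-one-out range of -0.33 to 0.074. *Ehmt2* between the knockdowns (0.02) became -0.34 and -0.43 under the scalings, -0.31 with library weights, -1.47 with the trend removed, -0.13 when H3.3-KD replicate 3 was left out and -0.24 when it was MFN1-KD replicate 3, in a leave-one-out range of -0.24 to 0.22. The cause of these changes was not tested.

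Whether libraries with the same replicate number were prepared together is not given in the sources used here. Their deviations from the group means correlated by -0.05 to 0.16 over 9 pairs, 2 of them over 0.1. Pairs with different numbers gave -0.12 to 0.07. The replicate block gave 2 higher and 1 lower member in H3.3-KD, losing *Suv39h2* (adjusted p of 0.0764), and changed no other call among the members. Over all genes in MFN1-KD it moved the calls from 150 higher and 286 lower to 6 and 25. Without read counts, the depth behind low values such as those of *Suv39h2* and *Atf7ip* is unknown, and 3 pools per group limit what could be resolved.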
